A study of Rattus norvegicus with 12 samples.

Results

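MicroRNAs (miRNAs) of the miR-155, miR-142, miR-223 and miR-146 families, which are best known from microglia and other immune cells, were followed in small RNA libraries of cultured rat cortical neurons. The set was chosen by name: every arm of miR-155, miR-142, miR-223, miR-146a and miR-146b in the count tables. This gave 8 of 685 miRNA names, and 7 of the 8 had enough counts to be tested. They were rno-miR-155-5p, rno-miR-142-3p, rno-miR-223-3p, rno-miR-146a-5p, rno-miR-146a-3p, rno-miR-146b-5p and rno-miR-146b-3p, where rno stands for rat and is left out below. The name too low to test was rno-miR-142-5p.

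The neurons came from cortices of Sprague Dawley rat embryos at embryonic day 17 and were grown on poly-L-lysine. All cultures received a lentivirus that expresses a short hairpin RNA (shRNA) at 10 days in vitro (DIV) and were lysed at 14 DIV. The shRNA was a non-targeting control (shNTC), targeted Stau2 (shStau2) or targeted Pum2 (shPum2), with 4 libraries each that the labels number 1 to 4. Staufen2, the product of Stau2, is a double-stranded RNA-binding protein and Pumilio 2, the product of Pum2, binds mRNAs. The shPum2 cultures are used here as a further control for effects of any active shRNA. Since shPum2 has its own target, a difference between shStau2 and shPum2 can come from either shRNA. All 3 groups therefore share the virus, the time in culture and the production of a hairpin RNA, and no untransduced culture was analysed here. Small RNA libraries do not read these mRNAs, so how far either target was depleted was not analysed here. The cultures are bulk samples: fewer cells of a type and less of a miRNA per cell cannot be told apart.

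A miRNA is cut from a hairpin whose strands give a 5p and a 3p product, and the strand loaded into an Argonaute protein finds its target mRNAs mainly through its seed, the bases near its 5′ end. In mouse and human, miR-142 is made almost only in cells of the blood lineage, which include microglia, and miR-223 is a miRNA of neutrophils and monocytes. MiR-155 and miR-146a are induced in macrophages and microglia by Toll-like receptor and NF-kappaB signalling, miR-155 promoting the response through repression of SOCS1 and SHIP1, and miR-146a restraining it through repression of IRAK1 and TRAF6.

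The mature sequences are shown because miRNAs with the same seed can share targets, and those alike over most of their length can exchange sequencing reads. They are RefSeq entries for the rat assembly GRCr8, and 8 of 8 names matched. Each is written 5′ to 3′ with the seed, bases 2 to 8, in capitals.
miR-155-5p: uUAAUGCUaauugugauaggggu
miR-142-3p: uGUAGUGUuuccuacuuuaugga
miR-142-5p: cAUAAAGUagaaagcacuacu
miR-223-3p: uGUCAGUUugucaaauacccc
miR-146a-5p: uGAGAACUgaauuccauggguu
miR-146b-5p: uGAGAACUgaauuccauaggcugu
miR-146a-3p: aCCUGUGAaguucaguucuuu
miR-146b-3p: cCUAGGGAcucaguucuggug

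The only seed held by more than 1 of the 8 was GAGAACU, of miR-146a-5p and miR-146b-5p. Counted from 1 at the 5′ end, these miRNAs were identical over the first 17 bases and differed from miR-146a-5p to miR-146b-5p by G18A and U21C, with 2 further bases at the 3′ end of miR-146b-5p. Their separate counts are therefore uncertain to the extent that the authors' assignment exchanged reads between them. In GRCr8, Mir155 lies on chromosome 11 within the long non-coding RNA gene Mir155hg, its host transcript. Mir142 lies on chromosome 10 within the span of Tspoap1, and the coding genes on its sides are Supt4h1 and Mpo. Mpo encodes the neutrophil enzyme myeloperoxidase. Mir223 lies on the X chromosome between the coding genes Msn and Vsig4, the latter encoding a complement receptor of tissue macrophages. Mir146a and Mir146b are separate genes, on chromosomes 10 and 1, and Mir146b lies within the span of the coding gene C1h10orf95.

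Totals per library lay between 3836349 and 5415763 counts, piRNA names included, and miRNA counts between 3804798 and 5378626. Levels are given as CPM, the usual count unit, here relative to the library's miRNA counts after scaling by trimmed mean of M-values (TMM). On this scale 3 counts corresponded to 0.588 to 0.763 CPM. The 8 names together accounted for 0.0624 to 0.104% of a library's miRNA counts. Their summed level ran from 703 to 1025 CPM in shNTC libraries, from 687 to 878 CPM in shStau2 and from 719 to 980 CPM in shPum2. For scale, the summed level of 8 neuron markers, led by miR-9a-5p and miR-128-3p, lay between 279671 and 345158 CPM over all 12 libraries. Most of that sum was miR-9a-5p, with a mean of 189426 CPM in shNTC, and whether it is specific to neurons was not tested.

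MiR-146b-5p was the most abundant of the set, at a mean of 565 CPM over the 12 libraries, which placed it 98th of the 685 names. MiR-155-5p followed at 119 CPM (215th) and miR-146a-5p at 102 CPM (229th). The blood-lineage miRNA miR-142-3p lay at 16.4 CPM (395th). Below it were miR-146b-3p at 6.71 CPM, miR-223-3p at 6.34 CPM, miR-146a-3p at 2.27 CPM and miR-142-5p at 0.858 CPM. The partner strands of the miR-146 hairpins were thus far below their 5p strands, while for miR-142 the 3p strand was the abundant one.

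**Figure D1:**
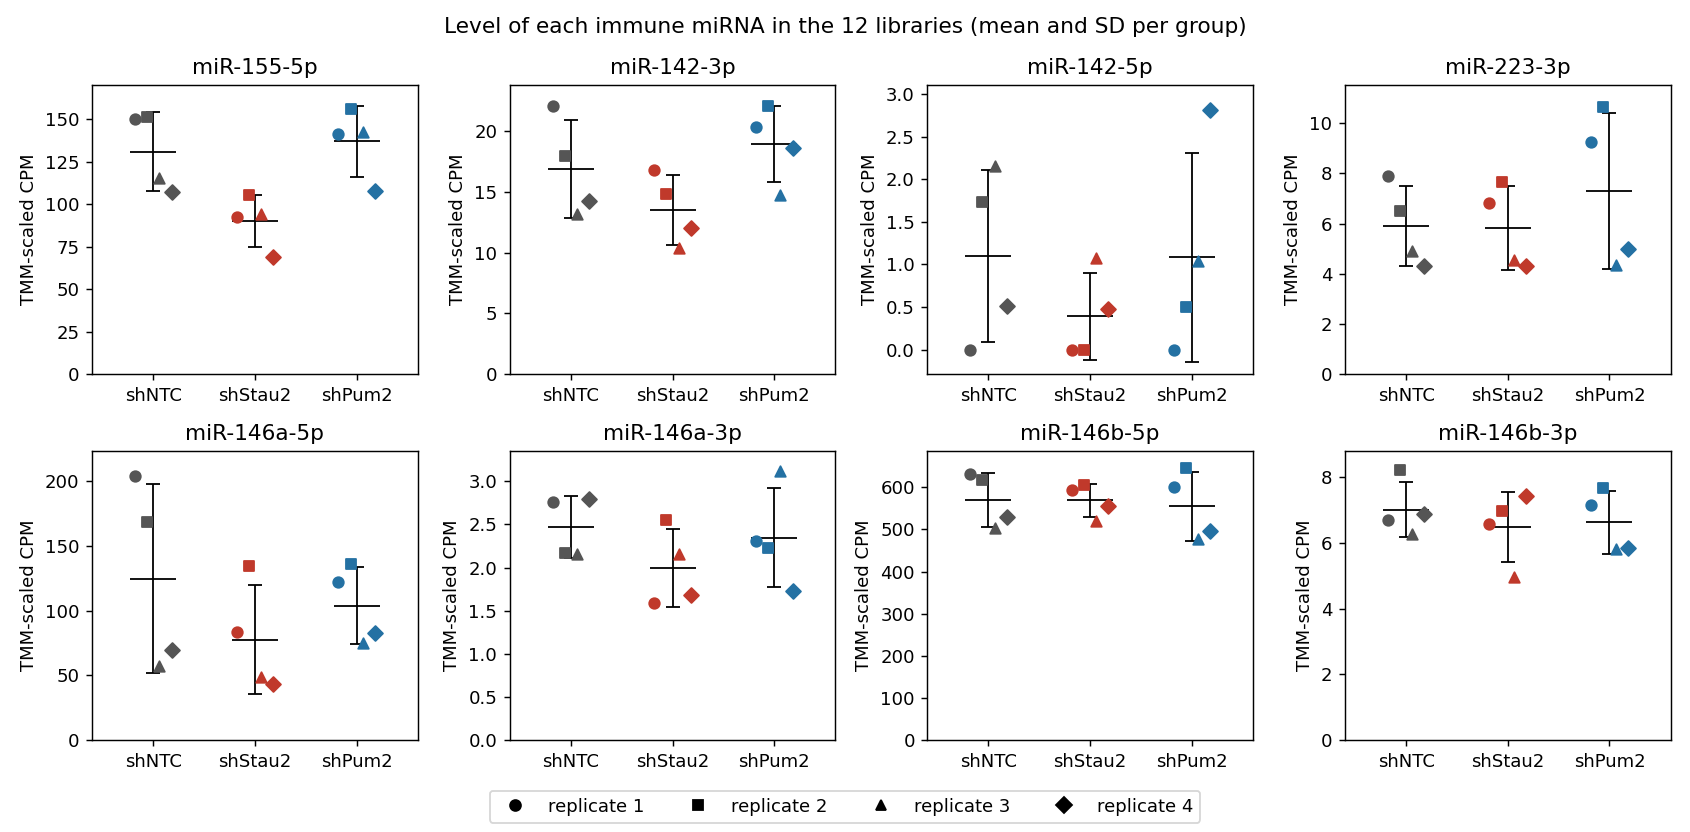
Level of each of the 8 immune miRNAs in each of the 12 libraries, in TMM-scaled CPM on linear axes that differ between miRNAs, by group, with marker shapes for replicate numbers and bars for the group mean and SD. The 4 miR-155-5p points of shStau2 lie below all points of the other groups, whereas the miR-146b-5p points of the 3 groups overlap.

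MiR-155-5p was lower in every shStau2 library than in any library of the control groups. It stood at 149.8, 151.4, 115.1 and 107.1 CPM in shNTC libraries 1 to 4. In shStau2 the same numbers held 92.1, 105.1, 94.1 and 68.6 CPM, and in shPum2 141.5, 156.1, 142.2 and 107.4 CPM. The lowest control library, shNTC 4, was above the highest shStau2 library, shStau2 2, by a small margin, while the shNTC and shPum2 levels overlapped. Means were 130.9 ± 23.1 CPM in shNTC, against 90.0 ± 15.3 in shStau2 and 136.8 ± 20.7 in shPum2 (SD, n = 4). Between 286 and 760 counts lay behind each level, so that counting alone gives an error of 4.03 to 5.03% at a group's mean.

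Against shNTC, the log2 fold change of miR-155-5p in shStau2 was -0.54 (SE 0.16), with an adjusted p of 0.191 in edgeR's quasi-likelihood test by group, which did not pass the threshold of 0.05. Libraries with the same number deviated together from their group means, so the fit that also holds the number as a replicate block is given beside it. In that fit miR-155-5p fell by 0.54 (SE 0.09) on the log2 scale, with an adjusted p of 0.00119, the 5th smallest p-value of 628 miRNAs. The change within same-numbered pairs was -38.5, -30.6, -18.2 and -36.0% for numbers 1 to 4. Against shPum2 the log2 fold change was -0.60 (SE 0.16; adjusted p = 0.159) in edgeR by group and -0.61 (SE 0.09; adjusted p = 0.000697) with the block, the 2nd smallest p-value. Here the pairs changed by -34.9, -32.7, -33.9 and -36.2%, a narrower range than against shNTC. Both comparisons use the same shStau2 libraries and are not independent.

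The shPum2 cultures gave no such difference from shNTC. For miR-155-5p edgeR gave 0.06 on the log2 scale (SE 0.16; adjusted p = 0.982) by group and 0.07 (SE 0.09; adjusted p = 0.843) with the block, and the pairs changed by -5.55, 3.05, 23.6 and 0.288%. The call of miR-155-5p held in 5 of 5 fits with a block, by edgeR with 4 scalings and by DESeq2, with adjusted p between 7.81e-06 and 0.00184 against shNTC and between 1.65e-07 and 0.0021 against shPum2. It also held in the 4 block fits that each leave out a replicate number, with adjusted p of 0.00209 to 0.0337 and 0.000904 to 0.021. Without the block, DESeq2 passed it (adjusted p = 0.0345 against shNTC and 0.0186 against shPum2) and the edgeR fits did not.

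Some miRNAs listed as markers of other cells moved in the same libraries. Those listed for astrocytes were 4: miR-21-5p, miR-23a-3p, miR-27a-3p and miR-143-3p. Their summed level ran from 4608 to 7429 CPM in shNTC. For shStau2 the range was 2673 to 3939 CPM, while shPum2 libraries held 3245 to 5350 CPM. In shNTC most of that sum was miR-21-5p, with a mean of 3298 CPM. Whether any of the 4 is specific to astrocytes was not tested, so the sum is not a measure of astrocytes. In edgeR by group 0 of the 4 were called in any of the 3 comparisons (shStau2 and shPum2 against shNTC, then shStau2 against shPum2). In that order 3, 1 and 1 had an unadjusted p under 0.05, beside 71, 9 and 59 of 628 miRNAs tested. DESeq2 called 2, 0 and 0 of the 4. In edgeR with the block, 3 of the 4 (miR-21-5p, miR-23a-3p and miR-27a-3p) fell in shStau2 against shNTC. Of all miRNAs tested, 3.82% were called lower there and 6.21% in either direction. In the same fit 1 of 4 (miR-23a-3p) fell in shPum2 against shNTC (0.159% of all called) and 0 of 4 passed in shStau2 against shPum2 (3.98% of all). In the latter 3 of the 4 had an unadjusted p under 0.05, beside 124 of 628 miRNAs tested. DESeq2 with the block called 3, 2 and 0 of the 4 in these comparisons. MiR-143-3p did not follow the other 3 against shNTC. In edgeR with the block its log2 fold change was -0.02 in shStau2 (adjusted p = 0.975) and 0.58 in shPum2 (adjusted p = 0.659), both against shNTC. In shStau2 against shPum2 it was -0.61 (adjusted p = 0.241). Of 6 vessel and mesenchyme markers, led by miR-126a-3p and miR-199a-3p, miR-126a-5p alone passed in shStau2 against shNTC in edgeR with the block (-0.46, SE 0.10, adjusted p = 0.0103), beside 3.82% of all miRNAs tested called lower and 6.21% in either direction. In that fit miR-126a-3p (-0.24) and miR-199a-3p (-0.21) were also below 0. MiR-145-5p (0.03), miR-199a-5p (0.09) and miR-214-3p (0.10) were above 0, and the median of the 6 was -0.09. DESeq2 called 2 of the 6 in that comparison, with and without the block. Their sum was 630 to 752 CPM in shNTC, with 509 to 669 in shStau2 and 583 to 809 in shPum2. Neither list has a marker at 0 in any library, and their part in the miR-155-5p result was not tested.

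MiR-142-3p was also lower in each shStau2 library than in its same-numbered control, but the groups overlapped. It stood at 22.1, 18.0, 13.1 and 14.3 CPM in shNTC libraries 1 to 4. The shStau2 libraries held 16.8, 14.8, 10.4 and 12.0 CPM, and the shPum2 libraries 20.3, 22.0, 14.7 and 18.6 CPM. Libraries 1 and 2 were the higher ones in each group. Means were 16.9 ± 4.04 CPM in shNTC, against 13.5 ± 2.87 in shStau2 and 18.9 ± 3.13 in shPum2 (SD, n = 4), from 48 to 112 counts per library, a counting error of at least 10.9% at each group's mean.

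Same-numbered pairs of miR-142-3p changed by -23.9, -17.3, -21.1 and -15.8% in shStau2 against shNTC, and by -17.5, -32.7, -29.8 and -35.5% against shPum2. The log2 fold change against shNTC was -0.32 (SE 0.20; adjusted p = 0.587) in edgeR by group and -0.32 (SE 0.13; adjusted p = 0.161) with the block, so neither passed. Against shPum2 it was -0.48 (SE 0.20; adjusted p = 0.451) by group and -0.49 (SE 0.13; adjusted p = 0.0388) with the block. That single call held in 4 of 5 block settings, DESeq2 with the block giving an adjusted p of 0.115, and in 0 of the 4 block fits that leave out a replicate number, with adjusted p of 0.0650 to 0.198. In shPum2 against shNTC the value was 0.17 (SE 0.13; adjusted p = 0.764) with the block.

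The other strand of miR-142 was barely detected. Its hairpin is shown with both mature strands in capitals, the 5p strand first, since each strand was counted under its own name.
Mir142 hairpin: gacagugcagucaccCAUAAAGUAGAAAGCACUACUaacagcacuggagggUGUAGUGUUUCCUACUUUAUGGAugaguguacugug
MiR-142-5p had 0, 8, 11 and 2 counts in shNTC libraries 1 to 4, then 0, 0, 5 and 2 in shStau2, and 0, 2, 5 and 13 in shPum2. It was at 0 in 4 of 12 libraries, and 3 of these were the libraries with number 1. As a share of the counts of both strands it made up 6.59 ± 6.18% in shNTC, against 3.32 ± 4.46% in shStau2 and 5.48 ± 5.79% in shPum2 libraries (SD, n = 4). The share did not differ detectably between groups in two-sided exact permutation tests over libraries (against shNTC, p = 0.543 for shStau2 and 0.771 for shPum2; p = 0.657 between shStau2 and shPum2; each 0.886 after adjustment over 6 ratio tests). The smallest p such a test can give is 0.0286.

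Summed over the 3 libraries of a number, miR-142-5p had 0 of 274 counts of both strands for number 1 (0%, exact 95% interval up to 1.34%). It had 10 of 246 for number 2 (4.07%, exact 95% interval 1.97 to 7.35%), 21 of 207 for number 3 (10.1%, 6.39 to 15.1%) and 17 of 209 for number 4 (8.13%, 4.81 to 12.7%). The number with no 5p count was the one with the highest mean of miR-142-3p, 19.7 CPM. These intervals cover counting error only. Zeros shared by a number were common among miRNAs of similar total: of 49 miRNA names with totals from 24 to 96 counts, 19 were at 0 in all 3 libraries of number 1, 3 in those of number 2, 7 in those of number 3 and 25 in those of number 4. Whether a step in making the tables set such low values to 0 is not known from the sources used here, so a 0 may not be a count of none and the interval for number 1 holds only if it is.

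MiR-223-3p, the neutrophil and monocyte miRNA, was near the lower end of what these libraries resolve. Its levels were 7.88, 6.49, 4.90 and 4.33 CPM in shNTC libraries 1 to 4, then 6.81, 7.65, 4.53 and 4.32 in shStau2, and 9.25, 10.7, 4.36 and 4.97 in shPum2, from 17 to 43 counts each. In each group, libraries 1 and 2 were above libraries 3 and 4, and the groups overlapped. Means were 5.90 ± 1.61, 5.83 ± 1.66 and 7.31 ± 3.11 CPM (SD, n = 4) in that order, with a counting error of 17.7 to 19.8% at a group's mean. With the block, edgeR gave log2 fold changes of -0.02 (adjusted p = 0.975) for shStau2 and 0.28 (adjusted p = 0.733) for shPum2, both against shNTC, and -0.30 (adjusted p = 0.394) between shStau2 and shPum2, none of which passed.

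MiR-146a-5p, the strand that targets IRAK1 and TRAF6 mRNAs, varied more between libraries than any other tested member. It stood at 204, 169, 56.8 and 69.2 CPM in shNTC libraries 1 to 4. In shStau2 it stood at 83.5, 135, 49.0 and 43.7 CPM, and in shPum2 at 122, 136, 74.8 and 82.6 CPM. Libraries 1 and 2 were again the high ones in each group, and the 3 groups overlapped. Means were 124.8 ± 73.0 CPM in shNTC, against 77.7 ± 41.8 in shStau2 and 103.8 ± 29.8 in shPum2 (SD, n = 4). Counting error at the mean was only 4.10 to 5.43%, and the spread between libraries exceeded it in each group.

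Pairs of miR-146a-5p changed by -59.1, -20.3, -13.8 and -36.9% in shStau2 against shNTC and by -31.7, -0.902, -34.5 and -47.1% against shPum2. The log2 fold change against shNTC was -0.69 (SE 0.48; adjusted p = 0.637) in edgeR by group and -0.64 (SE 0.20; adjusted p = 0.0968) with the block. It passed the threshold only in DESeq2 with the block (adjusted p = 0.0372). Against shPum2 it was -0.51 (SE 0.20; adjusted p = 0.183) with the block. For shPum2 against shNTC the block fit gave -0.14 (adjusted p = 0.872), and this value was positive, 0.12, when number 1 was left out.

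MiR-146b-5p, with the same seed, stayed close to 1 level in the 3 groups. It stood at 632, 618, 503 and 529 CPM in shNTC libraries 1 to 4, at 593, 606, 521 and 556 CPM in shStau2, and at 601, 645, 477 and 495 CPM in shPum2. Means were 570 ± 64.1, 569 ± 38.5 and 554 ± 81.5 CPM (SD, n = 4), with a counting error of 1.93 to 2.02%. With the block, edgeR gave log2 fold changes of 0.00 (SE 0.08; adjusted p = 0.99), -0.04 (adjusted p = 0.905) and 0.05 (adjusted p = 0.766) when shStau2 and shPum2 were set against shNTC and shStau2 against shPum2, in that order.

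Since the 5p strands of miR-146a and miR-146b share a seed, their ratio was also compared, which does not depend on the scaling. Per 100 counts of miR-146b-5p there were 32.4, 27.3, 11.3 and 13.1 of miR-146a-5p in shNTC libraries 1 to 4, then 14.1, 22.2, 9.41 and 7.84 in shStau2, and 20.4, 21.0, 15.7 and 16.7 in shPum2. The shPum2 libraries lay closer together than those of the other groups, and the groups overlapped. The log2 ratio was lower in shStau2 than in shNTC by a difference of -0.63, in 4 of 4 pairs, which did not pass the exact permutation test (p = 0.257, adjusted 0.771) or the exact sign-flip test over pairs (p = 0.125, the smallest it can give). Against shPum2 the difference was -0.57 in 3 of 4 pairs (exact permutation p = 0.171, adjusted 0.771), and shPum2 against shNTC gave -0.06 (exact permutation p = 0.886). With the counts of miR-146a-5p and miR-146b-5p summed, the log2 fold change with the block was -0.09 for shStau2 against shNTC (adjusted p = 0.533) and -0.02 against shPum2 (adjusted p = 0.934).

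**Figure D2:**
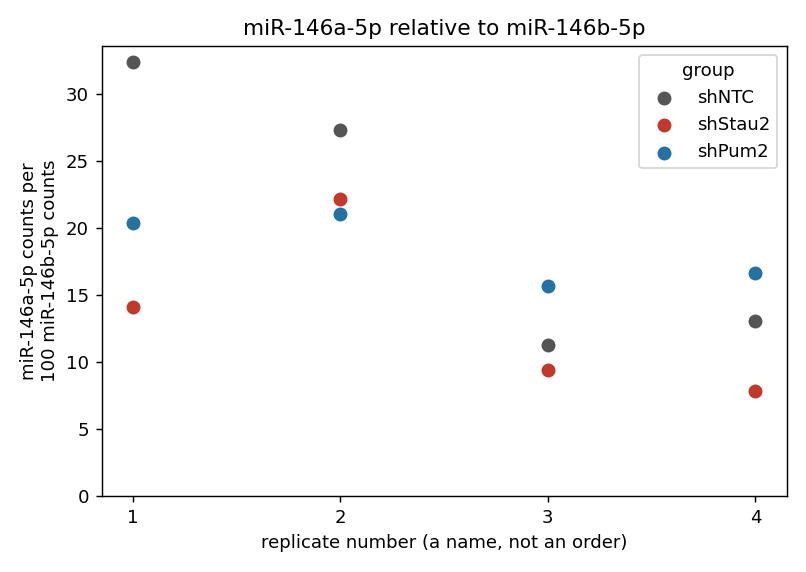
Counts of miR-146a-5p per 100 counts of miR-146b-5p in each of the 12 libraries, plotted by replicate number with a colour for each group. The ratio runs from 7.84 to 32.4, and libraries 1 and 2 lie above libraries 3 and 4 in each group.

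The partner strands showed no group difference at their depth. MiR-146a-3p ranged from 1.59 to 3.11 CPM, or 7 to 15 counts, over the 12 libraries. Its means were 2.47 ± 0.358 CPM in shNTC, against 1.99 ± 0.448 in shStau2 and 2.35 ± 0.573 in shPum2 (SD, n = 4), and with the block its log2 fold change in shStau2 against shNTC was -0.30 (adjusted p = 0.668). MiR-146b-3p ranged from 4.96 to 8.22 CPM, or 23 to 38 counts. Its means were 7.02 ± 0.842, 6.48 ± 1.07 and 6.62 ± 0.945 CPM (SD, n = 4), with a corresponding log2 fold change of -0.12 (adjusted p = 0.775).

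Over the 7 members tested, edgeR by group called 0 in shStau2 against shNTC, where 0.318% of all miRNAs tested were called, 0 in shPum2 against shNTC (0%) and 0 in shStau2 against shPum2 (0.478%). An unadjusted p under 0.05 was found for 1, 0 and 2 of the 7, beside 71, 9 and 59 of all 628 miRNAs tested. DESeq2 by group called 1, 0 and 1 of the 7. With the block, edgeR called 1 of 7 lower in shStau2 against shNTC, beside 3.82% of all miRNAs tested called lower and 6.21% called in either direction. It called 0 of 7 in shPum2 against shNTC (0.159% of all), where DESeq2 with the block also called 0. There 0 of the 7 had an unadjusted p under 0.05 in edgeR with the block, beside 46 of all 628. In shStau2 against shPum2 edgeR with the block called 2 of 7 lower, beside 2.39% called lower and 3.98% called in either direction. The median log2 fold change of the 7 by group was -0.30, -0.04 and -0.31 in these comparisons, beside medians of all miRNAs that were within 0.01 of 0.

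The values below 0 were 7 of 7, 4 of 7 and 6 of 7 by group in the same order, beside 49.5, 49.7 and 48.9% of all miRNAs tested. With the block they were 6, 4 and 6 of 7, beside 49.4, 50.3 and 48.7%. The 7 of 7 in shStau2 against shNTC include miR-146b-5p at -0.003 (SE 0.12) and miR-223-3p at -0.03 (SE 0.31). Levels that did not overlap between groups and were lower in shStau2 were found for 1 member, miR-155-5p, against either control, beside 5.25% of all miRNAs tested against shNTC and 2.71% against shPum2. Lower in 4 of 4 same-numbered pairs against shNTC were miR-155-5p, miR-142-3p and miR-146a-5p, beside 14.5% of all miRNAs tested. The same 3 were lower in 4 of 4 pairs against shPum2, beside 13.2%. In shPum2 against shNTC 0 of the 7 were lower without overlap, beside 0.796% of all, and 0 of the 7 were lower in 4 of 4 pairs, beside 6.85%. These comparisons share libraries, and the 7 names are products of only 5 genes.

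**Figure D3:**
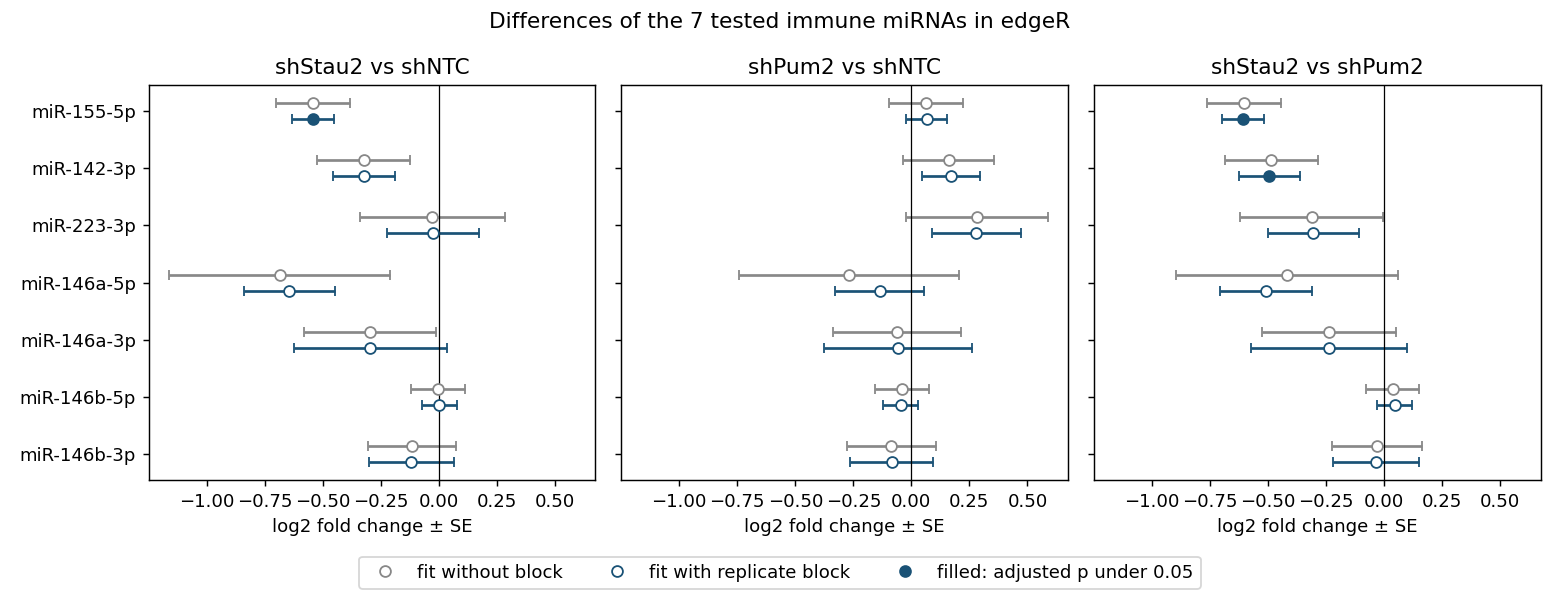
Log2 fold change of the 7 tested immune miRNAs in each of the 3 comparisons, from edgeR fits by group and with a replicate block, with bars of 1 SE and filled points where the adjusted p is under 0.05. MiR-155-5p lies at -0.54 against shNTC and at -0.61 against shPum2 with the block, and the bars of the block fit are shorter for miR-155-5p, miR-142-3p and miR-146a-5p.

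The members differed in whether their levels went with the replicate number or with the group. Of the sum of squares of log2 CPM over the 12 libraries, group took 61.0% and number 34.7% for miR-155-5p. For miR-142-3p number took 56.2% and group 38.1%. Number took 72.5% for miR-146a-5p, 82.6% for miR-223-3p and 87.4% for miR-146b-5p, where group took 2.27%. For all miRNAs tested the median share of number was 44.3% and that of group 16.5%.

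Size and share of the spread were separate. MiR-146a-5p had an SD of 0.71 on the log2 scale over the libraries, larger than that of 97.9% of miRNAs tested, beside a median of 0.25. MiR-146b-5p had an SD of 0.15, larger than only 18.6% of miRNAs tested, although its number share exceeded that of 96.5% of them. By number, miR-146a-5p averaged 137, 146.3, 60.2 and 65.2 CPM for numbers 1 to 4, miR-223-3p averaged 7.98, 8.27, 4.597 and 4.54 CPM, and miR-146b-5p averaged 608, 623, 500 and 527 CPM. MiR-155-5p averaged 128, 138, 117 and 94.4 CPM. Libraries 1 and 2 thus had the higher means for each of these 4 members. What a number stands for beyond a biological replicate is not given in the labels.

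**Figure D4:**
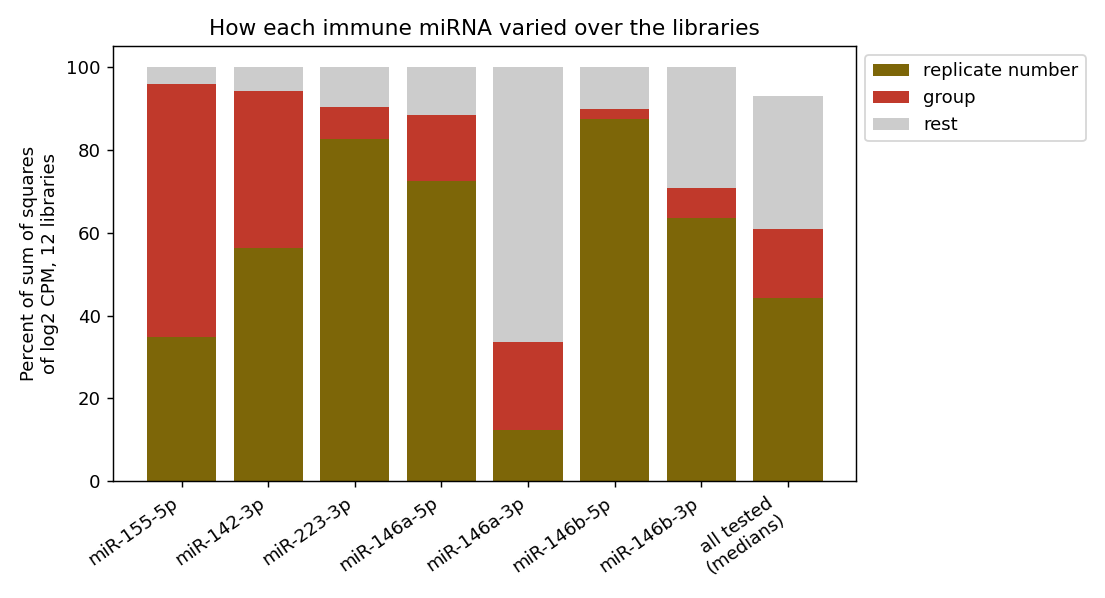
Share in percent of the sum of squares of log2 CPM over 12 libraries that goes with the replicate number, with the group and with neither, for each tested immune miRNA and, in the last bar, as medians over all 628 miRNAs tested. These medians were taken separately and so do not add up to the whole; group takes 61.0% for miR-155-5p and 2.27% for miR-146b-5p.

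Likeness of pattern is given as Pearson's r of log2 CPM over the 12 libraries, which share groups and numbers, among miRNAs with a mean of at least 10 CPM, and is a description only. Members of the set were among the nearest to each other: miR-142-3p was nearest to miR-146a-5p (r = 0.84, Spearman's rho = 0.88), and miR-146b-5p was the 2nd nearest to miR-223-3p (r = 0.85, rho = 0.73). MiR-146a-5p was nearest to miR-3085 (r = 0.93), followed by miR-412-5p (r = 0.85). MiR-155-5p had miR-329-5p (r = 0.84), miR-345-3p (r = 0.83) and miR-29b-5p (r = 0.83) as its nearest, and r was 0.75 with miR-146a-5p and 0.71 with miR-142-3p. Both miR-223-3p and miR-146b-5p had miR-133b-5p as their nearest, at r = 0.89 for each. For miR-146b-5p miR-323-3p (r = 0.86) and miR-5132-5p (r = 0.85) followed. MiR-412-5p was the next after miR-146a-5p for miR-142-3p (r = 0.78), followed by miR-3085 (r = 0.77), and was the 3rd nearest to miR-223-3p (r = 0.82). The low partner strands were nearest to miR-337-3p (r = 0.79), miR-299a-3p (r = 0.78) and miR-29c-5p (r = 0.72) for miR-146a-3p, and to miR-3075 (r = 0.81), miR-411-3p (r = 0.78) and miR-205 (r = 0.74) for miR-146b-3p.

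Of the other miRNAs of blood cells, none of those tested passed in any comparison. Of 7 further lymphoid and myeloid names, 6 were in the tables, 5 were tested and 0 were called in edgeR in any comparison, by group or with the block, while up to 1 had an unadjusted p under 0.05 and DESeq2 called 0. Over all miRNAs tested edgeR called at most 0.478% by group and 6.21% with the block, so 0 of 5 does not set this list apart. The most abundant was miR-342-3p, known from B cells and monocytes but also made in brain, at 4918 ± 347 CPM in shNTC, against 5603 ± 447 in shStau2 and 4986 ± 694 in shPum2 (SD, n = 4), followed by its other strand miR-342-5p at 77.2 ± 11.8, 71.0 ± 7.58 and 84.4 ± 15.3 CPM. The lymphocyte miRNA miR-150-5p lay at 11.7 ± 2.51, 11.3 ± 2.02 and 9.87 ± 0.869 CPM. The macrophage miRNA miR-511-3p was at 0 in 4 libraries, where a 0 may not be a count of none, and did not pass the filter.

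Of 4 erythroid names, 3 were in the tables, 2 were tested and 0 were called in edgeR, with up to 1 at an unadjusted p under 0.05 and 0 called in DESeq2. With 2 names tested, 0 calls likewise does not set the list apart from all miRNAs tested. MiR-486 lay at 296 ± 47.6 CPM in shNTC, against 352 ± 35.1 in shStau2 and 296 ± 52.9 in shPum2 (SD, n = 4). MiR-451-5p, the defining red cell miRNA, was at 0 in 8 of 12 libraries, and miR-144-5p, of the same gene cluster, lay at 1.95 ± 1.08, 2.32 ± 1.04 and 1.88 ± 0.640 CPM.

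MiRNAs that inflammation is known to change in other cells moved in part. Of 11 such names, all tested, edgeR by group called 0 in each comparison. In the order used above 3, 1 and 3 had an unadjusted p under 0.05, beside 71, 9 and 59 of 628 miRNAs tested, and DESeq2 called 2, 0 and 0 of the 11. In edgeR with the block, 1 rose and 2 fell in shStau2 against shNTC, beside 6.21% of all miRNAs tested called in either direction. In the same fit 0 passed in shPum2 against shNTC, where 2 had an unadjusted p under 0.05, beside 46 of 628 miRNAs tested. In shStau2 against shPum2 1 rose, beside 3.98% of all called in either direction. DESeq2 with the block called 3, 1 and 2 of the 11 in these comparisons. Those that fell were the strands of 1 hairpin, miR-21-5p (-0.97, SE 0.15, adjusted p = 0.00441) and miR-21-3p (-1.18, SE 0.25, adjusted p = 0.00994). MiR-21-5p is also counted among the astrocyte markers above, and lay at 3298 ± 1187 CPM in shNTC, against 1648 ± 305 in shStau2 and 2171 ± 585 in shPum2 (SD, n = 4). MiR-125b-5p, an abundant miRNA that represses TNF mRNA in macrophages, rose by 0.25 (SE 0.06, adjusted p = 0.0147) against shNTC and by 0.23 (SE 0.06, adjusted p = 0.0292) against shPum2. The most abundant of this list, miR-9a-5p, lay at 189426 ± 15040 CPM in shNTC and 190438 ± 15124 in shStau2 and is a neural miRNA.

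The oligodendrocyte markers, led by miR-338-3p and miR-219a-5p, gave 0 of 5 calls in edgeR in shStau2 against either control (by group 0 at an unadjusted p under 0.05, with the block up to 1, and DESeq2 0). Of the 8 neuron markers 0 were called in the same comparisons (by group 0 at an unadjusted p under 0.05, with the block up to 2, and DESeq2 0). Over all miRNAs tested, edgeR called 0.318% against shNTC and 0.478% against shPum2 by group, and 6.21 and 3.98% with the block. At such shares 0 of 5 and 0 of 8 do not set these lists apart.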

How the data were processed

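Small RNA was sequenced from 12 libraries, 4 per group. The authors deposited whole-number counts per small RNA name, not normalised, in 1 table per library. Per the labels' protocols, the library kit adds unique molecular identifiers. The sources used here do not give the aligner, the counter, or whether molecules or reads were counted. Per the submitters' processing notes, Rnor 6.0 was the genome build. If the counts are reads, amplification copies add to the apparent depth. The tables held 805 names, 685 of them miRNAs; the 120 piRNA names were left out of the main fit.

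The counts were tested in R 4.3.3 with edgeR 4.0.16 (TMM scaling, filterByExpr by group, robust quasi-likelihood test, all 12 libraries fitted together by group). This filter removed 57 names and left 628. P-values were two-sided and Benjamini-Hochberg adjusted over the 628, with a threshold of 0.05 and no minimum fold. Alternatives were a replicate block, other scalings and filters, DESeq2 1.42.0, fewer libraries and piRNAs kept. A miRNA called lower in a comparison is one past the threshold in that direction. CPM values are shares of a library and not amounts per cell. Likeness and sums of squares used log2 CPM with a prior count of 2. Both edgeR fits were run on simulated counts, whose outcome is not reported here. The counts for the fit by group held no replicate effect, so its behaviour on numbered libraries like these was not tested.

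Deviations from group means correlated at r = 0.36 to 0.57 across miRNAs for the 12 same-number pairs of libraries and at -0.41 to 0.14 for the 36 other pairs, so the numbers were taken to pair the libraries (limit 0.1). The labels call the libraries biological replicates without naming separate preparations, so p-values measure the spread between these libraries.

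The members, the lists and the rule for naming miRNAs (members, their 3 nearest miRNAs, the 2 most abundant of each list and any list member past the threshold) were chosen with earlier results of these data known. The miR-142 strands had been planned as a log2 ratio of 3p to 5p, which is undefined at 0 counts; the percent of both strands was used in its place, chosen after seeing the data, as was summing miR-146a-5p and miR-146b-5p. Sequences and gene neighbours come from RefSeq GRCr8, and no coordinates were carried between builds.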

Additional observations from a re-analysis of the deposited data

How the results depend on the processing

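Counts of changed miRNAs depended on the replicate block, the tool and, with the block, on single replicate numbers. In shStau2 against shNTC they were 2 by group, 39 with the block (38 to 43 with other scalings), 24 in DESeq2 and 42 in DESeq2 with the block; 39 again with scaling to library totals and 43 with RLE scaling. In shPum2 against shNTC they were 0, 1 in each block fit of edgeR and 2 in DESeq2 with the block. In shStau2 against shPum2 they were 3 by group, 25 with the block, 27 with RLE, 40 with upper-quartile and 26 with total scaling and the block, 9 in DESeq2, 30 in DESeq2 with the block, and 0 with upper-quartile scaling without the block or with only 8 libraries in the fit. The split of calls with the block moved with scaling, from 15 higher and 24 lower to 7 and 32 with library totals and 21 and 17 with upper-quartile scaling in shStau2 against shNTC, and from 10 and 15 to 5 and 21 and to 26 and 14 in shStau2 against shPum2. Leaving out libraries or, with the block, numbers gave 1 to 27 calls in shStau2 against shNTC (5 without number 4, 23 without number 1 or 2), 0 to 2 in shPum2 against shNTC and 0 to 51 in shStau2 against shPum2 (with the block 6, 51, 7 and 10 without numbers 1 to 4).

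Immune miRNAs past the threshold were 0 by group in each comparison. In shStau2 against shNTC they were 1 in each edgeR block fit and in DESeq2, and 2 in DESeq2 with the block; in shStau2 against shPum2 they were 2 in each edgeR block fit and 1 in DESeq2 with or without it. Leaving out libraries or numbers gave 0 to 1 in both. The block changed no other call among the 7.

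Values near 0 changed sign. For miR-146b-5p in shStau2 against shNTC the log2 fold change was 0.0016 with the block, 0.0067 with upper-quartile scaling, 0.014 with both, 0.016 with at least 10 counts in every library and 0.011 with 8 libraries; against shPum2 it was -0.021 with library totals and -0.012 with these and the block. For miR-146b-3p against shPum2 it was 0.0080 with upper-quartile scaling and 0.0040 with the block added. Leaving out libraries or numbers gave these ranges of log2 fold change across 0: in shPum2 against shNTC, -0.29 to 0.12 for miR-146a-3p, -0.51 to 0.12 for miR-146a-5p, -0.14 to 0.015 for miR-146b-3p, -0.10 to 0.024 for miR-146b-5p and -0.021 to 0.16 for miR-155-5p; in shStau2 against shNTC, -0.20 to 0.00025 for miR-146b-3p, -0.063 to 0.049 for miR-146b-5p and -0.19 to 0.15 for miR-223-3p; in shStau2 against shPum2, -0.16 to 0.078 for miR-146b-3p and -0.029 to 0.094 for miR-146b-5p. Leaving out a library, the log2 ratio of miR-146a-5p to miR-146b-5p ranged from -0.31 to 0.20 in shPum2 against shNTC and from -0.85 to -0.35 in shStau2 against shPum2, where it passed without shStau2 library 2 (exact permutation p = 0.0286, the smallest the test of the remaining 7 libraries can give). The difference in the miR-142-5p share ranged from -3.66 to 1.40 percentage points in shPum2 against shNTC and from -4.19 to 0.39 in shStau2 against shPum2. The cause of these changes was not tested. Depth limits miR-142-5p, miR-146a-3p, miR-146b-3p and miR-223-3p, whose counts per library did not exceed 43.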
